A study of Mus musculus with 12 samples.

Results

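The sites described here are the weaker of the genomic regions where the glucocorticoid receptor (GR) was called with dexamethasone (Dex) and not without it. GR binding was mapped by chromatin immunoprecipitation and sequencing in BWTG3 cells, a mouse hepatoma line, with a rabbit antibody against GR. The peaks of 11 libraries were merged into 47493 regions wherever they shared at least 1 bp. A region was kept when it was called in all 6 libraries with Dex, in none of the 5 without Dex, and had a mean normalized tag count below 100 over the 6. The normalized tag count is the authors' number of tags in a peak, scaled to 20000000 tags per library. These conditions gave 2147 weaker sites, beside 256 strong sites that met the same calls with a mean of 100 or more, 2403 strictly Dex-dependent regions in all.

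All cells were kept for 24 h without serum, and stimulation lasted 3 h in all. The TNFDEX group (3 libraries) received 1000 U/ml of recombinant tumour necrosis factor (TNF), an inflammatory cytokine, 1 h before 1 µM Dex, and the DEX group (3 libraries) received 1 µM Dex. The TNF group (2 libraries) received the cytokine alone, and the title of the NI group (3 libraries) names neither agent. The study asks how TNF changes the binding of GR to DNA. All groups come from 1 hepatoma line without a stated genetic change, and the files hold GR binding but no expression, so the hepatic identity of the cells could not be checked against markers.

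GR is a nuclear receptor that stays largely in the cytoplasm with chaperones until a glucocorticoid such as Dex binds it. It then enters the nucleus and binds DNA, often as a dimer on an inverted repeat of 2 short arms with 3 bases between them, or near other factors already on chromatin. In liver cells GR drives genes of gluconeogenesis and amino acid breakdown and represses many inflammatory genes.

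A small part of the weaker sites lay at gene starts, where the sequence under the peak can be read. Promoter windows of 300 bp, 250 bp before and 50 bp after each start, were taken from RefSeq with the coordinates of GRCm38.p6, which are those of mm10. In all, 50 weaker sites touched 56 of these windows, and 47 of the sites held bases upstream of a start. The GR element, the arms GNACA and TGTNC with 3 bases between them, was found in 13 of the 56 windows (23.2%), 3 of the 60 windows at regions called both with and without Dex (5.0%), and 156 of all 32851 windows (0.5%). Only 3 windows touched strong sites, and 1 of them held the element.

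The stretches below are the parts of such peaks upstream of a start that held the element, shown because the place of the element can be set against the measured peak. Each is printed 5′ to 3′ on the strand of its gene, in lower case with the element in capitals. Sgk1 encodes a kinase named for its induction by serum and glucocorticoids, Mt1 a metal-binding metallothionein, Map3k6 a kinase of the MAP kinase cascade, Slc10a6 a carrier of sulphated steroids, and Fam107a an actin-associated protein. Gm35268, Gm34099, Gm13415 and Gm33945 are predicted genes for which no role is given.

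Map3k6: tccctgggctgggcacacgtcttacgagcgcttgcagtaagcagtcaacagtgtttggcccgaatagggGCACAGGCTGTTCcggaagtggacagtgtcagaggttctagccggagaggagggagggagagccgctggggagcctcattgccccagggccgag
Slc10a6: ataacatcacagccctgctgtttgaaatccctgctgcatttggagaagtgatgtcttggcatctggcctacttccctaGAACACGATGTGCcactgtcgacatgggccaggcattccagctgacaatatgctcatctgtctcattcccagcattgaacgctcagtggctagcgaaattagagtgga
Mt1: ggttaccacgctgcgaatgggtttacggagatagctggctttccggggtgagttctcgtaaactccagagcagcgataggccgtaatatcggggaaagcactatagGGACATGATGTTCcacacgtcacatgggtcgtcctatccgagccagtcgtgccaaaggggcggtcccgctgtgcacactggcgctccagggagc
Gm35268: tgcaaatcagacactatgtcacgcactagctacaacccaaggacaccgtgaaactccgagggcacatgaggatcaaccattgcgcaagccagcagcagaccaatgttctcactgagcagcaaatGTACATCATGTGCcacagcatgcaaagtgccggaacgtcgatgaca
Gm34099: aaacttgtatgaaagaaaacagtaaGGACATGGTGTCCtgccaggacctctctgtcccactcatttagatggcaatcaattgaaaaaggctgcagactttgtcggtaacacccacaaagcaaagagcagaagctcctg
Sgk1: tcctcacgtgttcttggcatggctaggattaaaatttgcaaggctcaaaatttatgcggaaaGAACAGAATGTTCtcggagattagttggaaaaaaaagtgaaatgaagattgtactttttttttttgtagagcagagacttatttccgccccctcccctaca
Fam107a: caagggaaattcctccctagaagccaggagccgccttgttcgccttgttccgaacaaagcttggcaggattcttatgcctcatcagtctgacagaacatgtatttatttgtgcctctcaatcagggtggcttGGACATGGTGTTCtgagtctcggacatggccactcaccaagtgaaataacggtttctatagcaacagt
Gm13415: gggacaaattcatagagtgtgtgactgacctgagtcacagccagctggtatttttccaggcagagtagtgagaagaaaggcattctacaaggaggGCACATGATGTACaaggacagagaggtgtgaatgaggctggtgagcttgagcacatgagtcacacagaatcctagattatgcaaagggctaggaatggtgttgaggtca
Gm33945: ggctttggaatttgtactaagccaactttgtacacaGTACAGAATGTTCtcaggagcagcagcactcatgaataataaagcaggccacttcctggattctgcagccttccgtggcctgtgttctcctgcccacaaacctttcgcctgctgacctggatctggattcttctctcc

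In mm10 these are chr4:133240568-133240730 on the plus strand for Map3k6, chr5:103629459-103629644 on the minus strand for Slc10a6 and chr8:94178889-94179088 on the plus strand for Mt1. The stretch at Gm35268 is chr19:27312705-27312874, that at Gm34099 chr8:57410180-57410317 and that at Sgk1 chr10:21993640-21993802, all on the plus strand. The others are chr14:8309830-8310029 on the minus strand for Fam107a, chr2:24440143-24440346 on the plus strand for Gm13415 and chr10:21573837-21574010 on the minus strand for Gm33945. The element lay 88 bp before the start of Mt1 and 182 bp before that of Sgk1. Over the 9 stretches its middle was 0.7 to 59.5 bp from the mean centre of the called peaks, with a median of 11.3 bp, and within 20 bp in 7 of the 9. A match is a description of letters and not evidence of a bound site.

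Elements were present at high and low sites alike. The 9 sites with an element in the stretch had mean normalized tag counts of 13.22 to 85.48 with a median of 28.63, and the 38 without one had a median of 28.5. The Map3k6 site, the highest of the 9, had normalized tag counts of 126.1, 46.1 and 70.3 in TNFDEX libraries 1 to 3, and 89.7, 120.8 and 59.9 in DEX libraries 1 to 3. The Sgk1 site had 32.3, 11.3 and 28 in TNFDEX and 28.8, 43.8 and 27.6 in DEX. The 2 groups overlapped at both sites.

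Other motifs were searched in the same windows on both strands. A single GR arm, AGAACA, which can lie inside a full element, was in 35.7% of the windows at weaker sites and 19.0% of all windows. AP-1 letters TGANTCA were in 17.9% of the windows at weaker sites and 7.8% of all, C/EBP letters TTGCNNAA in 16.1% and 10.8%, and FOXA letters TGTTTNC in 33.9% and 20.5%. The NF-kB motif was in 8.9% and 4.8%, and HNF4 letters CAAAGTCCA in 1.8% and 0.5%. The regions called with and without Dex had shares near those of the weaker sites for AP-1 (15.0%), C/EBP (13.3%), FOXA (35.0%) and NF-kB (8.3%), and a lower one for the single arm (18.3%). The NF1 motif and the HNF1 motif were in none of the 56 windows at weaker sites.

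The libraries differed with Dex and also within the groups. Depth was 39228805 to 51141996 tags, and the lists held 2524 to 22590 peaks, which took 0.106% to 2.91% of a library's tags outside the mitochondrial genome. This share was 0.847% to 2.91% in the libraries with Dex and 0.106% to 0.722% in those without. Among the Dex libraries, TNFDEX 1 had the most peaks (22590) and TNFDEX 2 the fewest (8641). Summed normalized tag counts in mitochondrial peaks were 70983.1 to 108166.1 in TNFDEX 2, TNFDEX 3, DEX 3, TNF 2 and NI 3, and 1289.9 to 6953.2 in the other 6 libraries. The labels name no batch, so this division was taken from the files. Signal at 403 weaker sites was higher, and at 141 lower, in the Dex libraries with many mitochondrial tags than in those with few (limma, adjusted p below 0.05), which is 18.8% and 6.57%, beside 13.8% and 13% of the 4023 regions called in all 6 Dex libraries.

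The weaker sites made a continuous range of levels with no gap at 100. They were chosen by their calls in the 11 libraries and by their mean over the 6 Dex libraries, which lay between 8.42 and 99.55 with a median of 29.57 and quartiles of 19.99 and 45.62. Below 20 there were 537 sites, between 20 and 30 there were 552 (25.7%), between 30 and 50 there were 629 (29.3%) and from 50 up 429. The highest were sites at Sys1, Adgrl3 and Ttc26 with a mean of 99.55 each, and just outside lay strong sites at Slc47a2 (100.03), Mobp (100.2) and Ppp3r1 (100.4). Sites are named by the closest protein-coding gene, without any statement that they regulate it.

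The other 7 of the highest 10 sites lay at Fkbp5, Edc3, Deptor, Wdr73, Vps53, Stk38 and Pcsk2, with means of 97.62 to 99.15. At the site near Deptor, which encodes an inhibitor of the growth kinase mTOR, normalized tag counts were 178.3, 32.1 and 82.2 in TNFDEX and 99.6, 114.7 and 85.7 in DEX. At the site in Vps53, a gene of vesicle trafficking, they were 95.4, 66.9 and 166.1 in TNFDEX and 31.2, 27.0 and 203.8 in DEX. TNFDEX 1 and 2 thus stood at the 2 ends of the Deptor site, and DEX 3 stood far above DEX 1 and 2 at the Vps53 site. The 5 lowest sites were at Traf3ip2, an adaptor of interleukin-17 signalling, and at Tbcb, Gm51594, Aak1 and Phactr1, with means of 8.42 to 9.25. The Traf3ip2 site had 10.8, 6.3 and 7.0 in TNFDEX and 10.9, 8.2 and 7.3 in DEX, close to the lowest values any list held.

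The division at a mean of 100 over these 6 libraries fixes that weaker sites lie below strong ones, so their levels are given as a description. The weaker sites' median normalized tag count was 40.6, 18.8 and 35.8 in TNFDEX libraries 1 to 3 and 18.3, 23.5 and 35.8 in DEX libraries 1 to 3. The strong sites had medians of 181.65, 93.1 and 191.4 in TNFDEX and 101.85, 130.0 and 192.15 in DEX. TNFDEX 2 and DEX 1 were the low libraries for both classes. TNFDEX 2 was the lowest of the 6 at 1061 weaker sites (49.4%) and DEX 1 at 844 (39.3%), while TNFDEX 1 was the highest at 1043 (48.6%). Behind the weaker sites' medians stood 98, 48 and 87 tags in TNFDEX and 37, 46 and 83 in DEX, and the fewest tags of any member were 15 to 17 in a TNFDEX library and 12 to 15 in a DEX library. Counting error alone at those medians was 0.146, 0.208 and 0.155 in TNFDEX and 0.237, 0.212 and 0.158 in DEX on the log2 scale.

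**Figure D1:**
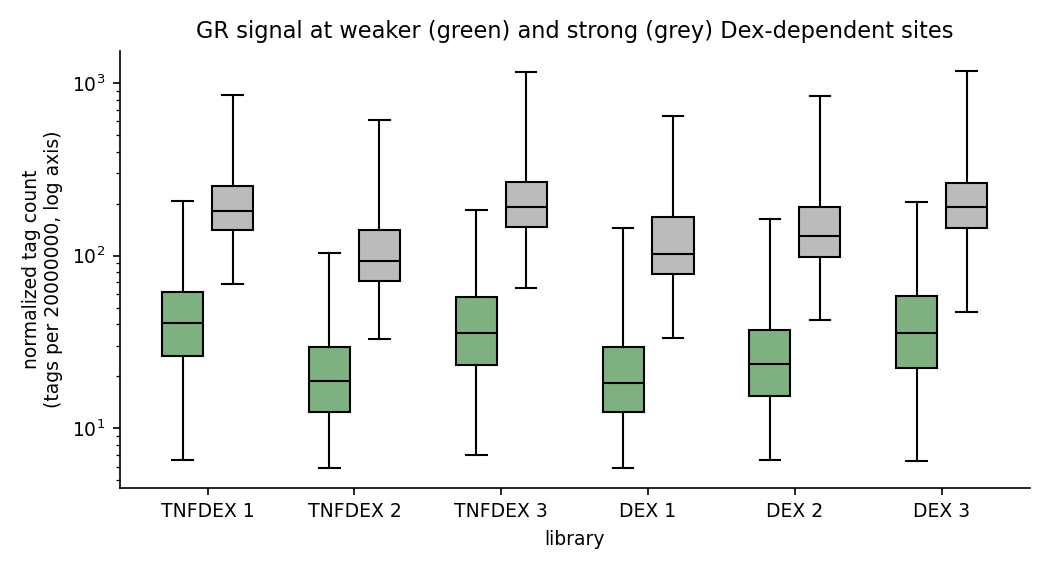
Normalized tag counts (tags per 20000000, log axis) of the 2147 weaker sites (green) and 256 strong sites (grey) in each Dex library. Boxes span the quartiles, the line is the median and whiskers reach the lowest and highest site, with weaker medians of 18.8 to 40.6 in TNFDEX and 18.3 to 35.8 in DEX.

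How firmly a weaker site was called was read from a library that took no part in choosing it. The rule was applied to the other libraries and the calls were counted in the one left out. Of the weaker regions so chosen, 2173 of 2190 (99.22%), 2119 of 2651 (79.93%) and 2165 of 2182 (99.22%) were called in TNFDEX 1, 2 and 3. In DEX 1, 2 and 3, 2122 of 2518 (84.27%), 2136 of 2325 (91.87%) and 2168 of 2209 (98.14%) were called. Strong regions chosen in the same way were called at 99.63% to 100.0% in every Dex library.

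The missed calls were concentrated at the low end and in TNFDEX 2 (8641 peaks) and DEX 1 (10480 peaks). These had the fewest peaks of the Dex libraries, but DEX 3 (12955 peaks) missed fewer calls than DEX 2 (13021 peaks). For regions with a mean below 20 in the other libraries, the share called was 98.49%, 59.66% and 97.91% in TNFDEX 1, 2 and 3 and 65.08%, 80.26% and 96.01% in DEX 1, 2 and 3. For regions of 50 to 100 it was at least 96.35% in every Dex library. A further 1193 regions missed the rule by 1 Dex call alone, and the missing library was TNFDEX 2 in 532 of them (44.6%) and DEX 1 in 396 (33.2%). The number of weaker sites is therefore set partly by these 2 libraries, and it was 2651 without TNFDEX 2.

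**Figure D2:**
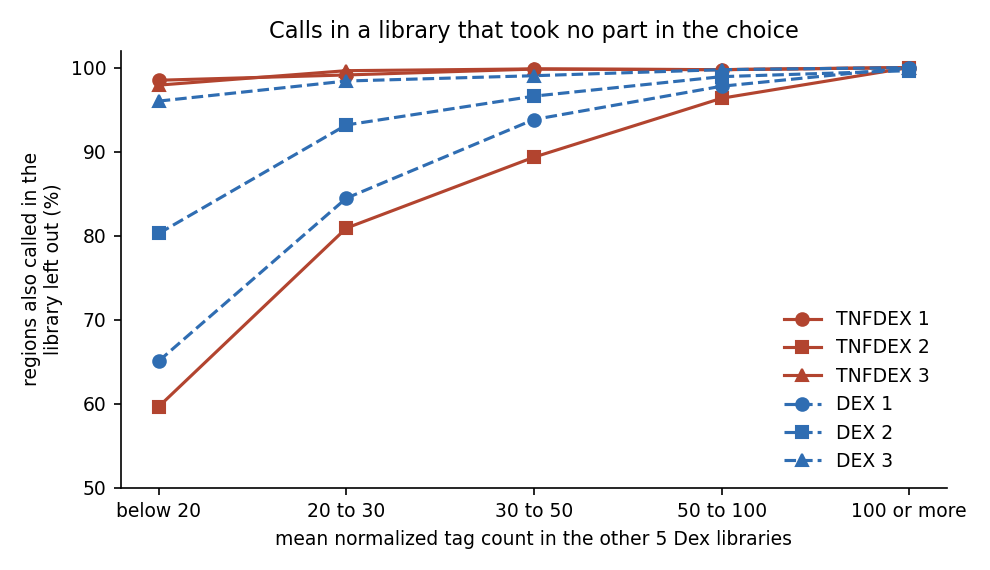
Share of regions called in the library left out (%, vertical axis from 50) against their mean normalized tag count in the other 5 Dex libraries, 1 line per TNFDEX (red, solid) or DEX (blue, dashed) library. The lines spread from 59.66% to 98.49% for means below 20 and lie at 96.35% or more from 50 up.

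In libraries without Dex that took no part in the choice, weaker regions were seldom called except in TNF 1. When each library without Dex was left out of the rule in turn, the weaker regions were called in TNF 1 at 388 of 2535 (15.31%) and in TNF 2 at 8 of 2155 (0.37%). The same share was 10 of 2157 (0.46%) in NI 1, 44 of 2191 (2.01%) in NI 2 and 3 of 2150 (0.14%) in NI 3. TNF 1 therefore stood apart from its replicate, for strong regions too (36 of 292, 12.33%). It also held more peaks, 8943 beside 4132 in TNF 2, 5442 in NI 1, 6502 in NI 2 and 2524 in NI 3. Peaks outside the mitochondrial genome took 0.722% of the tags in TNF 1 and 0.179% in TNF 2. A library with few peaks can miss a weak site, so a low share there does not establish that GR was absent. The part played by the number of peaks was not tested. At the 388 regions called in TNF 1 and in no other library without Dex, the median normalized tag count was 11.7 in TNF 1, and the mean over the Dex libraries was 2.19 times as high in the median. The level where no peak was called is not known and need not be 0, since the lists' lowest peaks had normalized tag counts of 6.6 or less.

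Being called only with Dex was somewhat less common among low regions than among high ones. Of the 3647 regions called in all 6 Dex libraries with a mean below 100, 58.9% had no call in NI or TNF, and of the 376 with a mean of 100 or more, 68.1% had none. These shares describe calls made at different levels, and no test was made of them.

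The weaker sites lay mostly away from gene ends. Of the 2147, 97 (4.52%) lay within 1 kb of either end of a protein-coding gene, measured from the nearer edge of the region. The same held for 5.08% of the strong sites, 3.58% of the regions called with and without Dex and 13.03% of all merged regions. Inside a gene span lay 945 weaker sites (44.01%), 39.84% of the strong sites and 49.21% of all regions. More than 50 kb from any gene lay 544 weaker sites (25.34%), 19.92% of the strong sites, 33.79% of the regions called with and without Dex and 24.75% of all regions. The median distance to a gene end was 30.7 kb for weaker and 22.2 kb for strong sites. Exons and introns were not separated, since the gene table holds spans. Chromosomes 2 (170), 1 (165) and 6 (136) held the most weaker sites and X held 34.

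The shape of the peaks is described for the 3 classes without a test, since the classes also differ in tags or in calls. The median focus ratio, the authors' share of a peak's tags placed on the expected side of its centre, was 0.835 at weaker sites, 0.896 at strong sites and 0.797 at the regions called with and without Dex. Peak centres of the 6 Dex libraries spread over a median of 39 bp at weaker sites, 18 bp at strong sites and 48 bp at regions called with and without Dex. They lay within 20 bp of each other at 14.4% of weaker sites, 60.9% of strong sites and 9.38% of regions called with and without Dex, so the weaker sites stood between the other 2 classes. The regions called with and without Dex had a median level of 30.97, near the 29.57 of the weaker sites. By level, the median spread was 55 bp below 20, 42.5 bp from 20 to 30, 36 bp from 30 to 50 and 26 bp from 50 to 100.

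A strong site lay within 50 kb of 108 (5.03%) of the weaker sites, beside 14.1% of the strong sites and 4.75% of the regions called with and without Dex. Among weaker sites this share was 2.79% below 20 and 10.26% from 50 to 100. Another weaker site lay within 50 kb of 25.2%, and the median distance to the next weaker site was 197.8 kb. Joined across gaps of up to 10 kb, the weaker sites gave 1929 single sites, 95 pairs, 8 groups of 3 and 1 group of 4. The group of 4 lay near Raph1, a regulator of actin at cell edges, at chr1:60596126-60614376, with means of 19.42 to 91.52. Groups of 3 lay near Cps1, the first enzyme of the urea cycle (13.52 to 25.5), near Klf6, a Krüppel-like transcription factor (30.35 to 66.68), and near Tsc22d3 and its neighbour Prps1 (12.72 to 62.13). The other groups of 3 were near Niban1, Nr2f1, Ptpn1, Ecpas and Hdac8.

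Weaker sites lay within 50 kb of 2643 protein-coding genes, 12.1% of 21887, and strong sites of 401 (1.83%), with 124 genes near both. Most of these genes, 2223, had 1 weaker site. The genes with most were Tsc22d3 with 7, Plcb1 and Tmprss2 with 6 each, and Pde4d and Raph1 with 5 each, and none of these 5 genes had a strong site within 50 kb. Plcb1 encodes a phospholipase C and spans 689.1 kb, and Pde4d, a phosphodiesterase that breaks down cyclic AMP, spans 1301.8 kb, so that their sites were spread over 272.0 kb and 1166.4 kb.

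Tsc22d3 encodes GILZ, an anti-inflammatory protein induced by glucocorticoids, and its 7 sites spanned 75.9 kb of chromosome X, 1 of them inside a gene. Their means were 12.72 to 62.13. The normalized tag counts summed over the 7 were 252.2, 140.8 and 256.7 in TNFDEX and 164.6, 218.7 and 274.9 in DEX. The 2 groups of unscaled sums overlapped, with TNFDEX 2 the lowest of the 6. The libraries' scaling factors were 1.475, 0.643 and 1.231 in TNFDEX and 0.732, 0.964 and 1.214 in DEX. Divided by them, all 3 TNFDEX sums fell below the DEX sums, narrowly for TNFDEX 2, and this was not tested. At Tmprss2, a membrane serine protease gene, the unscaled sums were 394.8, 172.4 and 370.8 in TNFDEX and 173.0, 215.2 and 457.9 in DEX, and overlapped.

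Of 37 genes of a glucocorticoid response list, 21 (56.8%) had a weaker site within 50 kb and 13 had a strong one, beside 12.1% and 1.83% of all protein-coding genes. The list was made of known GR targets, and no test of the share was made. Fkbp5, a chaperone partner that lowers GR's affinity for hormone, had a weaker site inside the gene at chr17:28463961-28464167 with 161.3, 50.4 and 103.2 in TNFDEX and 85.8, 110.6 and 83.6 in DEX, and 6 strong sites within 50 kb. Per1, a repressor of the circadian clock, had a weaker site inside the gene at chr11:69099306-69099498 with 101.6, 42.2 and 90 in TNFDEX and 122.5, 111.7 and 101.7 in DEX. All 3 TNFDEX values at Per1 were below the DEX values, the closest being 101.6 and 101.7. After scaling this also held, as it did at 5.49% of all 4023 regions. The log2 difference was -0.77 (SE 0.28), and the adjusted p was 0.661 (limma, Benjamini-Hochberg over 4023 regions). Klf15, a transcription factor of amino acid and glucose metabolism, had a site 25.4 kb away with 26.1, 104.0 and 183.8 in TNFDEX and 41.6, 36.7 and 163.7 in DEX. At this site the 3 libraries with many mitochondrial tags (104.0 to 183.8) were all above the 3 with few (26.1 to 41.6).

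The other sites of the list covered targets with several roles. Zbtb16, a zinc finger transcription factor, had a mean of 90.25 over the 6 libraries at its highest weaker site, and Tat, the first enzyme of tyrosine breakdown, 88.73. Mt1 and Mt2, with 2 weaker sites each, had the same highest one, that of the Mt1 sequence above, with 62.2, 50.4 and 123.4 in TNFDEX and 22.3, 34.7 and 70.2 in DEX. Rgs2, a brake on G protein signalling, had 59.7, 37.2 and 67.0 in TNFDEX and 11.9, 10.7 and 55.1 in DEX at a site 46.2 kb away. DEX 3 lay within the TNFDEX range there, and DEX 1 and 2 below it. The highest sites of the remaining genes had means of 20.58 (Cebpd) to 88.33 (Cavin2). Over all 40 distinct weaker sites within 50 kb of these genes, the log2 difference TNFDEX minus DEX had a median of -0.016 and a range of -0.77 to 1.32, with 18 above 0, and none passed the test (lowest adjusted p 0.551, limma), beside 0.0249% higher and 0.0% lower of all 4023 regions. After scaling, 2 of the 40 had all TNFDEX values above the DEX values and 4 had all below, beside 7.43% and 5.49% of all 4023 regions.

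**Figure D3:**
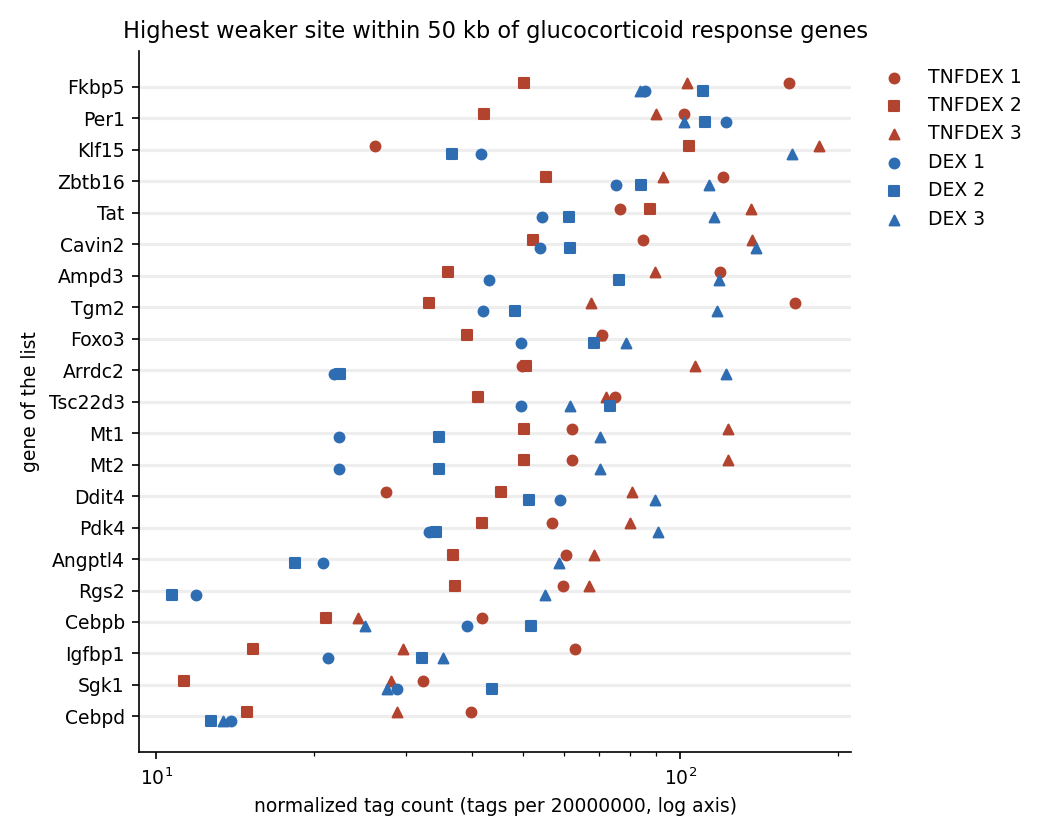
Normalized tag counts (tags per 20000000, log axis) at the highest weaker site within 50 kb of each of the 21 glucocorticoid response genes that had one, in TNFDEX (red) and DEX (blue) libraries. Most genes show overlapping groups, and at Klf15 the values split from 26.1 to 41.6 and from 104.0 to 183.8.

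Genes of liver metabolism had a weaker site near 13 of 38 (34.2%), and hepatocyte identity genes near 10 of 27 (37.0%), beside 12.1% of all protein-coding genes. The lists were chosen with earlier results of these data known, and no test of the shares was made. The Tat site had 76.7, 87.6 and 136.5 in TNFDEX and 54.5, 61.2 and 115.9 in DEX. A site 10.7 kb from Ass1, an enzyme of the urea cycle, had 103.3, 53.2 and 108.5 in TNFDEX and 49.1, 63.7 and 134.0 in DEX. Slc2a2, the glucose transporter GLUT2, had a site inside the gene with 77.1, 28.5 and 88.8 in TNFDEX and 32.7, 64.7 and 116.3 in DEX. All 3 sites had overlapping groups.

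Among the identity genes, the highest site lay 21.2 kb from Apoa1, the main protein of high-density lipoprotein, with 111.6, 46.5 and 95.8 in TNFDEX and 54.0, 49.5 and 89.2 in DEX. Apoa1 and its neighbours Apoa4 and Apoc3 had the same 4 weaker sites within 50 kb. Alb (albumin, 10.6 kb away, 3 weaker sites) and Afp (alpha-fetoprotein, 40.5 kb away, 2 weaker sites) had the same highest site, with 61.4, 24.6 and 70.3 in TNFDEX and 35.7, 31.1 and 125.8 in DEX. The groups overlapped at both sites. None of the 18 distinct weaker sites near genes of the metabolism list or the 15 of the identity list passed the limma test of TNFDEX against DEX (lowest adjusted p 0.765 in each). After scaling, 1 of the 18, at Foxo3, had all TNFDEX values below the DEX values, beside 5.49% of all 4023 regions.

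The clock list had a weaker site near 8 of 21 genes (38.1%), beside 12.1% of all protein-coding genes. Ciart, a clock repressor, had one 0.5 kb from the gene with 93.3, 40.7 and 85.5 in TNFDEX and 63.0, 86.2 and 100.4 in DEX, and Csnk1e, a kinase of the period proteins, had one 49.1 kb away with a mean of 71.88. A site 24.8 kb from Dbp, a clock output transcription factor, is added here after its values were seen. It had 94.1, 70.0 and 119.2 in TNFDEX and 33.2, 46.9 and 50.0 in DEX, without overlap, and did not pass the test (log2 0.96, SE 0.26, limma adjusted p 0.426). All 10 distinct weaker sites near clock genes had log2 differences of -0.77 to 0.96, with 3 above 0. After scaling, 1 of the 10, at Dbp, had all TNFDEX values above the DEX values. At 3 of them, at Per1, Ciart and Bhlhe40, all TNFDEX values were below. Over all 4023 regions these shares were 7.43% above and 5.49% below.

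Genes of inflammation had shares near the background. In the NF-kB and TNF list 4 of 32 genes (12.5%) had a weaker site within 50 kb and in the acute phase list 3 of 30 (10.0%), beside 12.1% of all protein-coding genes. Nfkbie, an inhibitor of NF-kB, had a site 34.9 kb away with 53.9, 26.2 and 44.8 in TNFDEX and 37.7, 35.7 and 49.5 in DEX. Tnfrsf1a, the main TNF receptor, had one 29.1 kb away with a mean of 28.35, and Tnfaip2, a gene induced by TNF, one 0.3 kb away with a mean of 22.87. In the acute phase list the sites were near Agt (angiotensinogen, mean 37.75), Stat3 (a transcription factor of interleukin-6 signalling, 21.47) and Cp (ceruloplasmin, 21.25). The groups overlapped at Nfkbie. The fourth gene, Tnfaip3, an inhibitor of NF-kB signalling, had a site 30.7 kb away with 35.7, 18.4 and 29.2 in TNFDEX and 8.9, 14.8 and 18.1 in DEX, without overlap (log2 0.85, SE 0.23, limma adjusted p 0.414). After scaling, 1 of the 5 distinct sites near genes of the first list, at Tnfaip3, had all TNFDEX values above the DEX values. In the second list, 2 of 3 had all of them below, at Agt (log2 -0.67) and Stat3 (-0.43). Over all 4023 regions these shares were 7.43% above and 5.49% below. None of the 5 sites of the first list or the 3 of the second passed the limma test (lowest adjusted p 0.414 and 0.527).

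The AP-1 and immediate early list had a weaker site near 4 of 21 genes (19.0%), beside 12.1% of all protein-coding genes. Means were 71.88 at Maff, 66.68 at Klf6 and 36.25 at Ier2, all transcription regulators. The Maff site, 9.4 kb from that gene, was the same region as the Csnk1e site. GR and its cofactors had one near 2 of 20 genes (10.0%), Hsp90ab1, an HSP90 chaperone (41.3), and the coactivator Ncoa3 (20.83). The Hsp90ab1 site was the same region as that of Nfkbie. Of the markers of other cell types, 2 of 12 stromal and endothelial genes (16.7%), Kdr and Dcn, and 3 of 12 macrophage genes (25%), Cd14, Ptprc and Itgam, had a weaker site within 50 kb, which shows binding near them and nothing of their expression. These shares, too, stand beside 12.1% of all protein-coding genes and were not tested.

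No difference in the overall level of the weaker sites between TNFDEX and DEX was found beyond the spread between libraries. Averaged over libraries, the median log2 normalized tag count was 4.913 ± 0.596 in TNFDEX and 4.637 ± 0.489 in DEX (SD, n = 3 each), a difference of 0.276 with a two-sided exact permutation p of 0.6 (20 arrangements, smallest possible p 0.1). The direction turned between the mitochondrial divisions. From library totals, the median difference over sites was 0.869 in the libraries with few mitochondrial tags (TNFDEX 1 against DEX 1 and 2) and -0.461 in those with many (TNFDEX 2 and 3 against DEX 3), and after scaling 0.056 and -0.013. Relative to the strong sites of the same library, the weaker sites' median was -2.296 ± 0.129 in TNFDEX and -2.456 ± 0.028 in DEX on the log2 scale (n = 3 each), a difference of 0.16 with an exact permutation p of 0.1, the smallest this design allows. All 3 TNFDEX libraries had the smaller gap, with strong sites 4.47, 4.95 and 5.35 times the weaker in TNFDEX and 5.57, 5.53 and 5.37 times in DEX. TNFDEX 3 and DEX 3 were close. Within the libraries with few mitochondrial tags the difference in the gap was 0.311, and within those with many it was 0.061.

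Tested site by site, 1 of the 2147 weaker sites was higher in TNFDEX than in DEX and none lower (limma on log2 normalized tag count, adjusted p below 0.05), beside 0.0249% and 0.0% of the 4023 regions tested. At an unadjusted p below 0.05, 138 weaker sites were higher and 25 lower, beside 4.9% and 1.49% of all regions. In both directions these are 163 sites (7.59%), beside 6.39% of all regions and 4.69% of the strong sites. After scaling, 190 weaker sites (8.85%, all regions 7.43%) had all 3 TNFDEX values above the DEX values and 88 (4.1%, all regions 5.49%) had all 3 below. The median log2 difference was 0.065 at weaker sites, -0.071 at strong sites and -0.012 over all regions, with a median SE of 0.281 at a weaker site. From library totals alone these medians were 0.215, 0.079 and 0.137. The middle 90% of weaker sites lay between -0.467 and 0.78.

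The site that passed lay at chr19:21947945-21948163, 89.6 kb from Cemip2, which encodes a cell surface enzyme that degrades hyaluronan. Its normalized tag counts were 100.4, 41.8 and 63.7 in TNFDEX (68.63 ± 29.61) and 12.9, 10.2 and 15.1 in DEX (12.73 ± 2.45, SD, n = 3 each). Every TNFDEX value was above every DEX value, also in the libraries with few mitochondrial tags (100.4 against 12.9 and 10.2) and in those with many (41.8 and 63.7 against 15.1). The log2 difference was 2.21 (SE 0.27, limma adjusted p 0.0499). The adjusted p rose above 0.05 on leaving out TNFDEX 2 (0.37), TNFDEX 3 (0.181), DEX 1 (0.0775), DEX 2 (0.201) or DEX 3 (0.0589), with log2 differences of 2.06 to 2.42, and was 0.000284 when replicate numbers were blocked.

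The 4 sites with the next most positive statistics had the same order of groups and did not pass. A site 61.8 kb from Acsl1, which activates long-chain fatty acids, had 90.4, 51.2 and 91.3 in TNFDEX and 17.4, 21.4 and 15.5 in DEX (log2 1.92, adjusted p 0.0797). A site 36.9 kb from Dcn, the proteoglycan decorin, had 52.3, 36.8 and 78.9 in TNFDEX and 6.9, 13.8 and 19.8 in DEX (log2 1.96, adjusted p 0.0797). A site inside Csf1, the growth factor of macrophages, had 85.0, 50.1 and 92.5 in TNFDEX and 19.8, 25.5 and 21.1 in DEX (log2 1.59, adjusted p 0.101). A site 66.2 kb from Lpp, a protein of cell adhesion sites, had log2 1.53 (adjusted p 0.102). At none of these 4 sites did the groups overlap, which the choice by this statistic favours. After scaling, 7.43% of all 4023 regions had all TNFDEX values above the DEX values. Each of the 4 passed with the mitochondrial division as a term (limma adjusted p 0.0048 to 0.0148).

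At the negative end the differences were smaller. Sites lay inside Sesn1, a stress-induced inhibitor of mTOR signalling (log2 -0.71), Capn9, a calpain protease (-0.67), and Cuedc1 (-0.71). The others lay 189.3 kb from Klf14 (-0.87) and 133.5 kb from Slc38a2, an amino acid transporter (-0.7). The limma adjusted p-values of these sites were 0.522 to 0.618. The Sesn1 site had 41.9, 18.8 and 32.1 in TNFDEX and 32.2, 44.4 and 56.4 in DEX. The unscaled groups overlapped there, and did not after scaling.

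**Figure D4:**
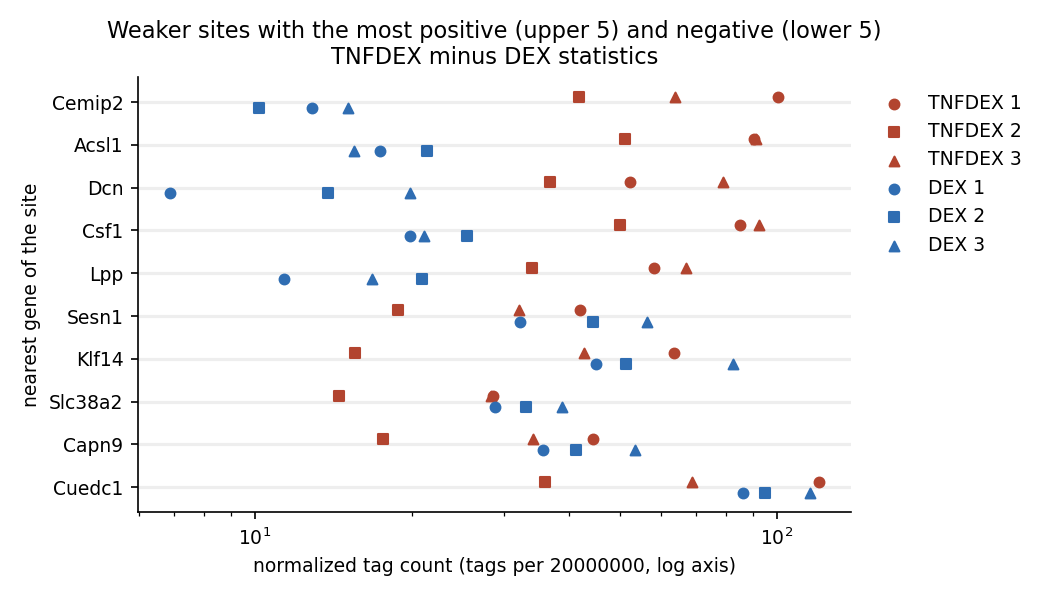
Normalized tag counts (tags per 20000000, log axis) at the 5 weaker sites with the most positive and the 5 with the most negative moderated statistics, in TNFDEX (red) and DEX (blue) libraries. The 2 groups are apart at the upper 5, which the choice by statistic favours, and overlap at Sesn1 below. Cemip2 had 41.8 to 100.4 in TNFDEX and 10.2 to 15.1 in DEX.

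With the mitochondrial division as a term in the fit, 21 weaker sites (0.978%) were higher in TNFDEX and 1 (0.0466%) lower (limma adjusted p below 0.05). Of all regions, 0.696% were higher and 0.0249% lower, and 2 strong sites (0.781%) were higher. The shares of higher sites were thus near each other. The 21 hold the 5 sites above. Of the others, 3 are given first, chosen after their values were seen. One lay inside Irak3, an inhibitor of interleukin-1 and Toll-like receptor signalling, with 81.3, 41.5 and 72.8 in TNFDEX and 21.3, 29.1 and 29.3 in DEX (log2 1.13, adjusted p 0.0222). Another lay near Map3k13, a kinase of the JNK pathway, with 119.0, 53.2 and 100.3 in TNFDEX and 24.3, 31.6 and 49.1 in DEX (1.16, adjusted p 0.0192). A site inside Pde4b, a phosphodiesterase of cyclic AMP, had 61.8, 30.9 and 48.1 in TNFDEX and 17.8, 14.3 and 9.5 in DEX (1.8, adjusted p 0.0206). No TNFDEX value was below a DEX value at these 3 sites.

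A further one of the 21 lay at the start of the predicted gene Gm36333 inside Pla1a, a phospholipase gene, with 44.0, 25 and 39.5 in TNFDEX and 11.9, 14.8 and 15.5 in DEX (adjusted p 0.0218). It is the 1 site of the 21 whose sequence at a start is shown, and none of the motifs searched is in it. Its stretch is chr16:38433013-38433215 on the plus strand, printed in lower case throughout because no element was found.

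Gm36333: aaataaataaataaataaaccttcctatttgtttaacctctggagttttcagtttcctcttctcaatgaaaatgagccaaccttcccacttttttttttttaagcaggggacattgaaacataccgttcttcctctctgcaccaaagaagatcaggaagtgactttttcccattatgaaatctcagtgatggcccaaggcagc

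The other sites of the 21 were closest to Pabpc2 (90.7 kb away), Zfp804a, Trp63, Wdr34, Faf2, Myo16, Nalcn, Asap2, Slco1a5, Apobec1, Tubd1 and Tnfrsf13b. After scaling, the groups overlapped at Myo16, Tubd1 and Tnfrsf13b. Myo16 had values of 75.5, 94.6 and 149.7 in TNFDEX and 14.9, 21.4 and 80.6 in DEX, with DEX 3 above TNFDEX 1. The 1 lower site, near Ccny, had 9.5, 11.7 and 22.2 in TNFDEX and 9.9, 11.2 and 55.1 in DEX, and rests on DEX 3.

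The largest negative differences, at sites chosen after their values were seen, followed the mitochondrial division. A site inside Niban1, a stress response gene, had 105.3, 10.9 and 21.0 in TNFDEX and 103.1, 126.9 and 22 in DEX, a log2 difference of -1.34 with an adjusted p of 0.798 (limma). A site inside Trio had 157.6, 23.5 and 37.8 in TNFDEX and 144.8, 163.7 and 37.5 in DEX (-1.04, adjusted p 0.805). At both sites TNFDEX 1, DEX 1 and DEX 2, the libraries with few mitochondrial tags, were all above the other 3. What the mitochondrial division stands for was not tested.

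**Figure D5:**
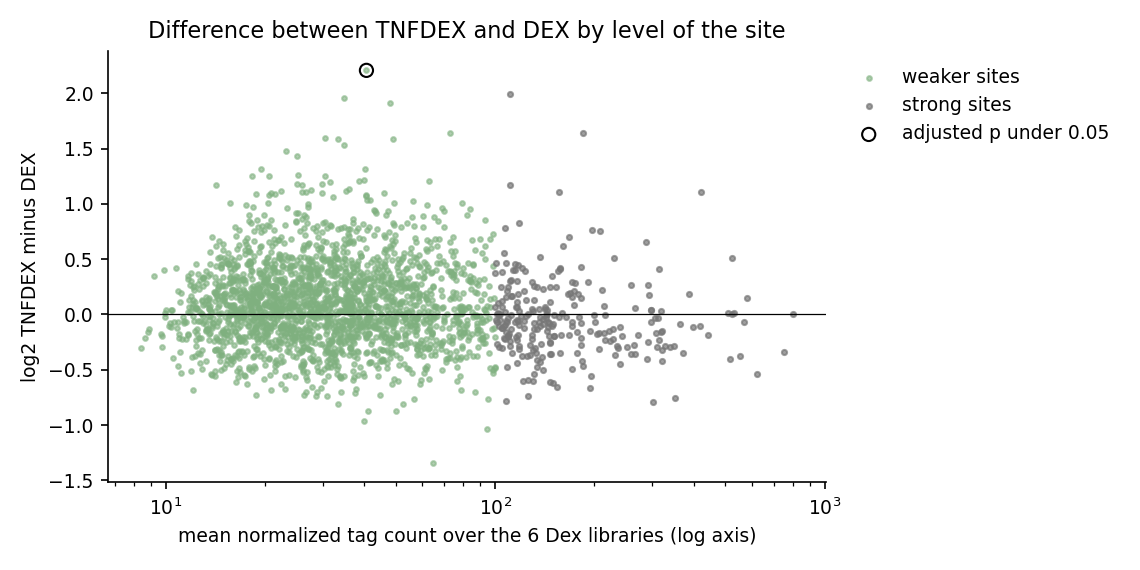
Log2 difference TNFDEX minus DEX (TMM-scaled) of each weaker (green) and strong (grey) site against its mean normalized tag count over the 6 Dex libraries (log axis). The circled point, 2.21 at a mean of 40.68, is the site near Cemip2 that passed the test.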

How the data were processed

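Per the submitters' processing notes, the authors used CASAVA 1.8, Bowtie 1.0.0 and HOMER 4.6 with build mm10. No source used here gives trimming or the treatment of duplicates. FindPeaks was run in factor mode on every library with the same input, per the file headers, at a false discovery rate of 0.001, 4-fold over input and over the surrounding 10000 bp, with a Poisson p of 0.0001. The deposited signal is the normalized tag count, the deposited fraction the focus ratio, the deposited score the position-adjusted tag number, the deposited ratios are folds over input and surroundings, and the deposited p-values are those of findPeaks. All but the signal only describe or filter peaks. Multiplied back by library size, the signal gave whole tags within 0.128 of a tag, but counted in windows that differ by library, so no count model was run.

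The strongest peak per library was used. TNFDEX and DEX were compared with limma 3.58.1 on log2 normalized tag count without a pseudocount, with TMM scaling (trimmed mean of M values, in its published form) over the 4023 regions called in all 6 Dex libraries, with Benjamini-Hochberg adjustment at 0.05, after a test on simulated data. Replicates were treated as separate samples. Gene spans and starts came from GRCm38.p6. Planned motif shares in windows at site centres needed a genome and were replaced by promoter windows, and no sequence away from starts was used here. Sites and genes were named by level, by test statistic, by number of sites near a gene, and by the 3 highest genes of each of 10 lists (241 genes). The members and lists were chosen with earlier results of these data known. Alternatives were other scalings and filters, leaving out each library, the replicate number as a block and the mitochondrial division as a term. Other steps used Python 3.11.15 with pandas 2.3.3, numpy 2.4.6, matplotlib 3.10.9 and scipy 1.17.1.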

Additional observations from a re-analysis of the deposited data

How the results depend on the processing

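The number of weaker sites was 1032 when peaks had to be 8-fold over input and surroundings and 4731 from the libraries with many mitochondrial tags alone, fewer libraries then having to share a call, and 2150 to 2651 with each library left out, the highest without TNFDEX 2 and 2535 without TNF 1. Sites higher in TNFDEX numbered 0 with library totals, 0 at a mean of at least 20, 9 with the replicate block, 21 with the mitochondrial division as a term and 0 to 3 with each Dex library left out. Sites lower in TNFDEX numbered 1 with that term and 0 to 0 with each library left out. Same-numbered TNFDEX and DEX libraries deviated together by correlations of 0.372, -0.367 and 0.575, so the numbers were not taken to pair them. With the replicate block, the exact permutation p was 1.0 for the median difference and 0.25 for the gap, the smallest of 8 arrangements. The median difference was 0.054 to 0.616 and the gap difference 0.093 to 0.221 with each Dex library left out. The share near a gene end was 14.9% within 5 kb, and 4.04% to 4.57% with each library left out. The Ccny site, at -0.59 in log2, was at -0.94 to 0.03 with each Dex library left out, and 0.03 without DEX replicate 3, and the cause was not tested. Glucocorticoid response genes with a weaker site were 20 to 23 and promoter windows with a GR element 13 to 14 with each library left out. The planned motif windows at site centres were not run, since they need a genome. The division by mitochondrial tags was made after seeing the files.

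The lowest peaks at weaker sites rest on as few as 12 tags and carry a large counting error. The share of regions below 20 called was 98.49% in TNFDEX 1 (48225044 tags), 59.66% in TNFDEX 2 (51141996) and 97.91% in TNFDEX 3 (48641690). It was 65.08% in DEX 1 (40342546), 80.26% in DEX 2 (39228805) and 96.01% in DEX 3 (46425427). The deepest library, TNFDEX 2, thus had the lowest share, and a link with depth was not tested. The number of libraries limits every test, since 3 against 3 cannot give an exact p below 0.1.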
